A study of Mus musculus with 8 samples.

Results

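The 10 genes described here encode cadherins (Cdh2, Cdh4, Cdh11, Cdh13) and catenins (Ctnna1, Ctnna2, Ctnna3, Ctnnb1, Ctnnd1, Ctnnd2). They were followed through RBM45 iCLIP peaks in a mouse hippocampal cell line. A peak belonged to a gene when its midpoint lay in the gene body on the strand listed for the peak. By this rule the 10 genes held 1622 of 387749 distinct peaks in replicate 1, 1870 of 344700 in replicate 2, and 70 of the 16399 peaks that the authors listed as shared by both replicates. The genes were proposed from these same peak lists, so their peak counts, densities, folds and sharing are given as a description, with no test. The gene bodies span 5618.3 kb, in a set of 15995 genes with peaks in both replicates.

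The study mapped RBM45, an RNA-binding protein, by iCLIP, in which RNA bound to a protein is crosslinked, precipitated with the protein and sequenced. The cells were mHiPPoE-2, a transformed hippocampal neuron line of strain Crl:CFW(SW)-024 and WT genotype, transduced with a lentivirus that expresses FLAG-HA-tagged mouse RBM45 and precipitated with the HA-Tag (C29F4) antibody. The tagged protein came from a transgene in all samples used, and its promoter is not given. The 8 libraries, 2 per group, are CLIP libraries and their input controls, each from WT and from Mettl3 knockout cells. The values come from the CLIP peaks of WT replicate 1 and WT replicate 2, and nothing in the labels says whether the replicates were separate cultures. Peaks are not expression levels, so the neuronal label could not be checked by expression. Peaks in both replicates were present in 7 of 7 neuron markers, 1 of 3 neural progenitor and 2 of 3 astrocyte markers. For oligodendrocyte markers it was 3 of 3, for microglia 2 of 3, and for endothelium and epithelium 1 of 3 each. The neuron markers span 10.6 to 421.8 kb and the neural progenitor markers 2.1 to 9.4 kb. The share of all annotated genes with peaks in both replicates was not computed, so nothing about cell type is read from these counts. Peak numbers varied widely within lists. The neuron markers ran from 3 and 1 peaks of Tubb3 to 212 and 94 of Map2. Of the astrocyte markers, Slc1a3 had 67 and 51, Aqp4 1 and 1, and Gfap 0. Of the microglia markers, Cx3cr1 (168.3 kb) had 21 and 30, Csf1r 3 and 10, and Aif1 1 and 0.

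Classical cadherins are transmembrane proteins that bind each other across neighbouring cells. Their cytoplasmic tails bind beta-catenin and the delta-catenin family, and alpha-catenin links beta-catenin to actin, so the complex ties the membrane to the cytoskeleton and, in neurons, takes part in synapse adhesion and neurite growth. Beta-catenin also acts in the nucleus in Wnt signalling. Cdh2 (N-cadherin), Cdh4 (R-cadherin) and Cdh11 (OB-cadherin) are of the transmembrane kind, whereas Cdh13 (T-cadherin) is held in the membrane by a glycolipid anchor and lacks the tail that binds catenins.

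Few of the peaks lie in a sequence that the transcript reference holds, because 70 of 70 shared peaks of these genes were intronic. The bases of 2 shared Cdh13 peaks could be read, since a processed transcript without a coding sequence, Cdh13-202, has an exon there, inside intron 5 of the main transcript. They are printed with the replicates' peaks joined, from the GENCODE M21 transcripts (GRCm38, the assembly also named mm10), 5′ to 3′ on the strand of the gene, with the bases inside peaks of both replicates in capitals. For contrast, 2 coding peaks found in replicate 1 and not in replicate 2 follow, all in lower case.
Cdh13 chr8:118855504-118855540 (+): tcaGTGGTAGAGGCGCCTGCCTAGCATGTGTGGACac
Cdh13 chr8:118855926-118856016 (+): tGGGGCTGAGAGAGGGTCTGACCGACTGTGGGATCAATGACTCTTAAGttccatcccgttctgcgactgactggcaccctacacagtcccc
Cdh11 chr8:102634451-102634515 (-): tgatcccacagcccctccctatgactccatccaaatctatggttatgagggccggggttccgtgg
Ctnnb1 chr9:120950696-120950748 (+): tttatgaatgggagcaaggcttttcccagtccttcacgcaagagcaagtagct

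In the first Cdh13 peak 32 of 37 bases lay in both replicates, and in the second 47 of 91. The letters GAC, which RBM45 is known to bind, were searched on the printed strand. The first Cdh13 sequence held 1 GAC, at position 33 counted from its 5′ end. The second held 5, the Cdh11 sequence 1 and the Ctnnb1 sequence 0. Among all transcript windows of the same length, 37.4%, 68.4%, 56.3% and 49.1% held at least 1 GAC, in the order printed. A run of TTTTT, searched the same way because crosslinking favours uridine, was in 0 of the 4 sequences, against 5.18%, 12.1%, 8.89% and 7.36% of windows. These matches describe the letters and mark no binding site.

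What a peak contained could be read from the deposited values. The authors' fold and −log10 p of nearly every peak were those of a whole number of reads stacked at the peak's summit (the pileup) over a background (the reads expected there by the peak caller). A whole-number pileup matched 99.998% of replicate 1 peaks and 99.997% of replicate 2 peaks within 0.001 on the −log10 scale. Of the peaks in these 10 genes 75.2% in replicate 1 and 77.4% in replicate 2 had a pileup of 1, a single read. Over all genes with peaks in both replicates the shares were 76.6% and 69.4%. The lowest background was 0.0246 reads in replicate 1 and 0.0404 in replicate 2, and a single read passed as a peak at a background of up to 0.103 in both.

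Cdh13 and Ctnnd2 held most of the peaks. Cdh13 (ENSMUSG00000031841.19, chr8:118283733-119324921, plus strand, 14 exons) had 741 in replicate 1 and 798 in replicate 2, which gave it rank 3 of 15995 genes in each. Ctnnd2, a delta-catenin enriched in brain, followed with 330 and 452, and Ctnna2, the neuronal alpha-catenin, with 202 and 301. At the low end Ctnnb1 had 11 and 8 peaks, Ctnnd1 14 and 10, and Cdh4 16 and 21. No peak with its midpoint outside reached into a gene body: counting any overlap in place of the midpoint gave the same 1622 and 1870.

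Peaks per kb of gene body separated the large genes. Cdh11 (153.5 kb) had 0.782 peaks per kb in replicate 1 and 0.788 in replicate 2, with a mean of 0.785 ± 0.00461 (SD, n = 2). Cdh13 (1041.2 kb) had 0.712 and 0.766, a mean of 0.739 ± 0.0387 (SD, n = 2). The replicates of these genes did not overlap, and both lay above those of every other member. Ctnnd2 (856.7 kb) followed with 0.385 and 0.528. In the middle were Ctnna1 (135.9 kb) with 0.375 and 0.294, Ctnnb1 (31.3 kb) with 0.352 and 0.256, Cdh2 (220.4 kb) with 0.322 and 0.195, Ctnnd1 (50.7 kb) with 0.276 and 0.197, and Ctnna2 (1098.1 kb) with 0.184 and 0.274. Neighbours in this order had overlapping replicate values, while Ctnna1 lay above Ctnnd1 and Ctnna2 in both replicates. Ctnna3 (ENSMUSG00000060843.11, chr10:63430098-65003667, plus strand, 18 exons, 1573.6 kb), the alpha-catenin best known from heart, had 0.0419 and 0.0483, and Cdh4 (456.9 kb) had 0.0350 and 0.0460. Both lay below the other 8 in each replicate and overlapped each other. The median gene over 100 kb had 0.275 and 0.256 peaks per kb. Cdh13, Cdh11, Ctnnd2 and Ctnna1 were above it in both replicates, and Ctnna3 and Cdh4 were below it in both. Cdh2 and Ctnna2 lay on different sides of it in the replicates.

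**Figure D1:**
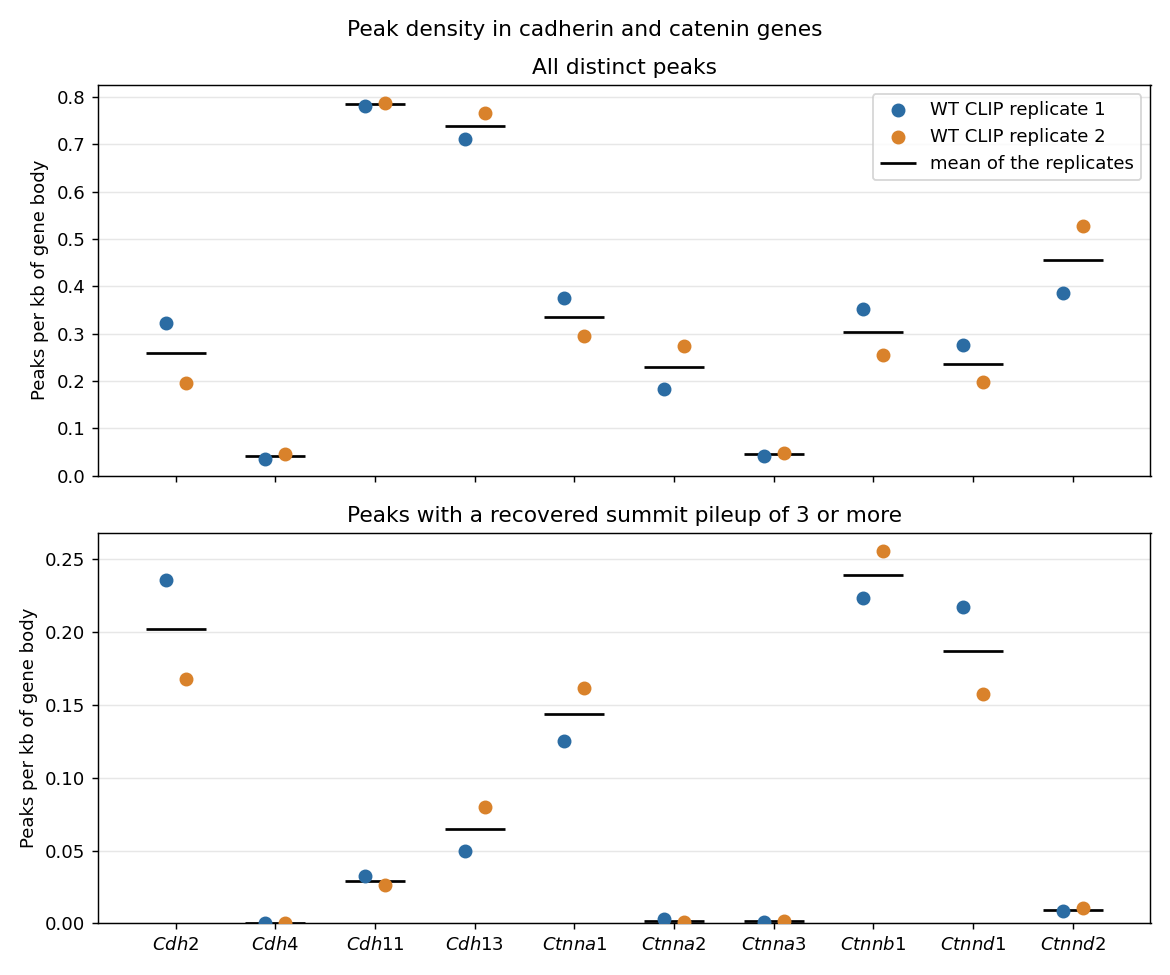
Peaks per kb of gene body for the 10 genes in WT CLIP replicates 1 and 2 (points) with the mean of both (lines), for all distinct peaks (top) and for peaks with a pileup of 3 or more (bottom; the vertical scales differ). Cdh11 and Cdh13 are highest in the top panel, at means of 0.785 and 0.739, and Ctnnb1 and Cdh2 in the bottom panel, at 0.240 and 0.202.

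The order changed with the depth of the peaks. Among peaks with a pileup of 3 or more, a limit chosen after the values were seen, Ctnnb1 had 0.240 ± 0.0226 per kb (SD, n = 2), Cdh2 0.202 ± 0.0481, Ctnnd1 0.187 ± 0.0418 and Ctnna1 0.143 ± 0.0260. Cdh13 had rank 5 with 0.0648 ± 0.0210 and Cdh11 rank 6 with 0.0293 ± 0.00461. Ctnnd2 had 0.00934, Ctnna2 0.00182 and Ctnna3 0.00159, and Cdh4 had 0 such peaks. In both replicates each of Ctnnb1, Cdh2, Ctnnd1 and Ctnna1 was above each of the other 6.

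The same 4 genes stood apart in their background. The median background under their peaks was 0.277 and 0.335 reads for Cdh2 in replicates 1 and 2, 0.129 and 0.259 for Ctnna1, 0.302 and 0.569 for Ctnnb1, and 0.273 and 0.289 for Ctnnd1. In the other 6 it ran from 0.0246 to 0.0555 in replicate 1 and from 0.0404 to 0.0553 in replicate 2. In replicate 1 single-read peaks made up 1.41% of Cdh2 peaks, 25.5% of Ctnna1 peaks, 0 of Ctnnb1 and Ctnnd1 peaks, and 0 of the peaks of these 4 genes in replicate 2. In the other 6 genes they were 72.7% to 100% of peaks. Since a single read passed the peak caller only at low background, peak counts of the 4 genes and of the other 6 rest on different depths, and their densities are not on one footing. Background depends on the reads around a site, and how far it follows the amount of each RNA was not tested.

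**Figure D2:**
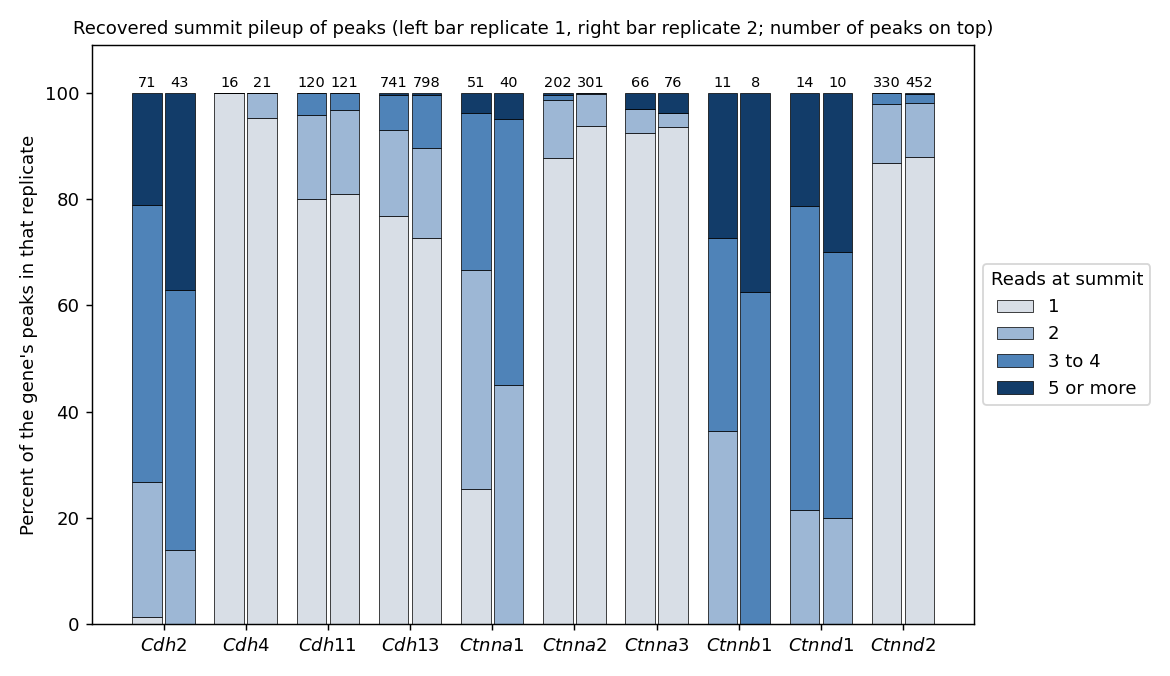
Percent of each gene's peaks with a pileup of 1, 2, 3 to 4, or 5 or more reads; left bars are replicate 1, right bars replicate 2, and the number of peaks stands on top. Cdh2, Ctnna1, Ctnnb1 and Ctnnd1 have few or no single-read peaks, while in Cdh4, Cdh11, Cdh13, Ctnna2, Ctnna3 and Ctnnd2 they are 72.7% or more.

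The ratio of peak numbers between replicates also differed along this divide, which was drawn after the values were seen. Replicate 2 had fewer peaks than replicate 1 in Cdh2 (a ratio of 0.606), Ctnnb1 (0.727), Ctnnd1 (0.714) and Ctnna1 (0.784). In Cdh11 the ratio was 1.01, in Cdh13 1.08, in Ctnna3 1.15, in Cdh4 1.31, in Ctnnd2 1.37 and in Ctnna2 1.49. Over the whole lists replicate 2 had fewer peaks, 344700 against 387749. Some counts behind the ratios are small, with 11 and 8 peaks in Ctnnb1, 14 and 10 in Ctnnd1 and 16 and 21 in Cdh4. No interval was computed for the ratios, so no trend is read from them.

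Of the 1870 replicate 2 peaks in these genes, 112 overlapped a replicate 1 peak by at least 1 base, or 5.99% (Wilson 95% interval 5.00 to 7.16). The background over all replicate 2 peaks in genes was 7.87% (26901 of 341646), which lies above that interval. Of replicate 1 peaks in the 10 genes 111 of 1622 overlapped replicate 2, or 6.84% (5.71 to 8.18). This interval held the share over all genes with peaks in both replicates (26759 of 382219 replicate 1 peaks). The comparison thus depended on which replicate's peaks were counted, and no difference in sharing is read from it. Single-read peaks made up 77.4% of the replicate 2 peaks of the 10 genes and 69.4% over all genes with peaks in both replicates. Whether this bears on the shares was not tested. At least 1 shared peak was present in 7 of the 10 genes, against 38.7% of genes with peaks in both replicates (6197 of 15995). The genes were chosen on these lists and many are long, and of genes over 100 kb 66.1% had a shared peak, so nothing is read from the 7 of 10. Peaks of 1 gene share its RNA and library, and the intervals cover counting error only.

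Among the cadherins, Cdh13 had 61 of 798 replicate 2 peaks overlapping replicate 1, or 7.64% (6.0 to 9.70), and Cdh11 had 8 of 121, or 6.61% (3.39 to 12.5). Both intervals hold the background of 7.87%. Cdh2 had 1 of 43, or 2.33% (0.412 to 12.1), and this pair was not in the authors' shared list. Cdh4 had 0 of 21, which allows a share of up to 14.3%.

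Among the alpha-catenins, Ctnna3 had 7 of 76, or 9.21% (4.53 to 17.8), and Ctnna1, the widely expressed member, had 4 of 40, or 10.0% (3.96 to 23.1). Ctnna2 had 6 of 301, or 1.99% (0.917 to 4.28), with an interval below the background and below that of Ctnna3. Of replicate 1 peaks the shares were 2.97% (1.37 to 6.33) in Ctnna2 and 10.6% (5.23 to 20.3) in Ctnna3. These intervals overlapped. So did those of single-read replicate 2 peaks, 1.42% (0.553 to 3.59) in Ctnna2 and 5.63% (2.21 to 13.6) in Ctnna3. Of the rest, Ctnnb1 had 1 of 8, or 12.5% (2.24 to 47.1). Ctnnd1, the delta-catenin also called p120-catenin, had 0 of 10, which allows up to 30%. Ctnnd2 had 24 of 452, or 5.31% (3.59 to 7.78), just under the background.

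**Figure D3:**
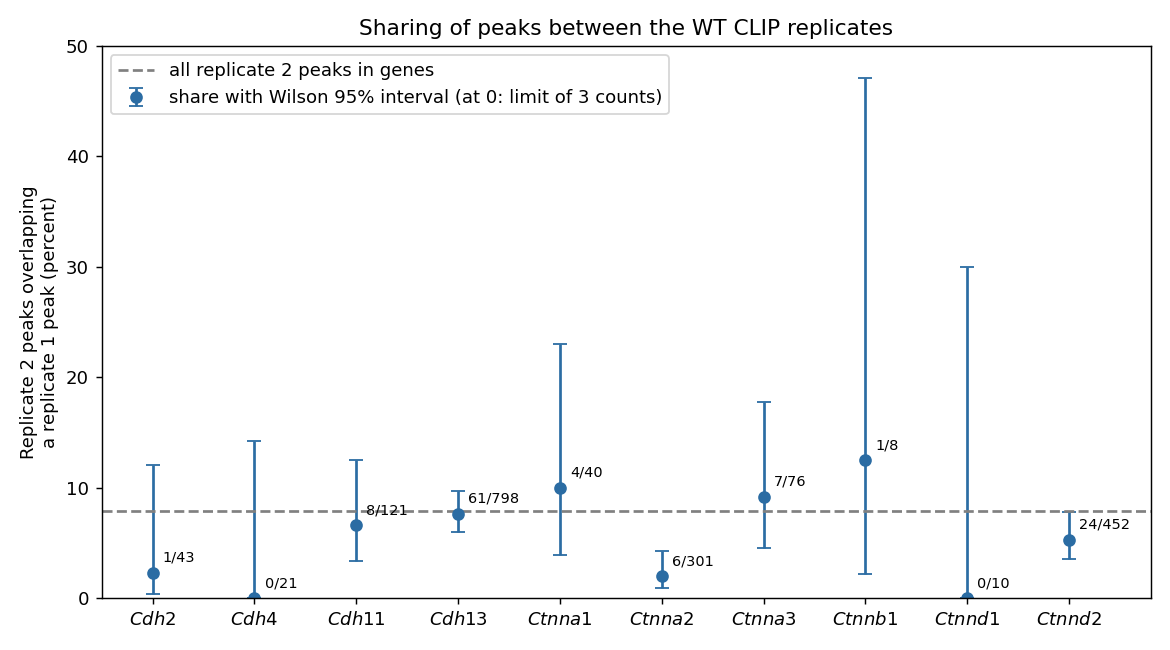
Percent of each gene's replicate 2 peaks that overlap a replicate 1 peak by at least 1 base, with Wilson 95% intervals and counts (for Cdh4 and Ctnnd1, at 0, the bar is the limit that 3 peaks would set); the dashed line is the 7.87% of all replicate 2 peaks in genes. The interval of Ctnna2 lies below the line, that of Ctnnd2 ends just under it, and the other 8 hold it.

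Ctnna3 and Cdh13 differed 16.4-fold in mean peak density, while their shares over all peaks had overlapping intervals. Ctnna3 had few peaks, and 7 of its 76 were shared. Its share of 9.21% had an interval that held all of that of Cdh13. When the overlap had to cover 50% of the replicate 2 peak, Ctnna3 kept 7 of 76 and Cdh13 had 34 of 798, or 4.26% (3.06 to 5.89), which still overlapped the interval of Ctnna3. Single-read peaks overlapped in 4 of 71 cases in Ctnna3, or 5.63% (2.21 to 13.6), and in 38 of 580 in Cdh13, or 6.55% (4.81 to 8.87). Of peaks with 5 or more reads in replicate 2, 3 of 3 in Ctnna3 overlapped replicate 1 (43.9% to 100%) and 1 of 4 in Cdh13 (4.56% to 69.9%). These intervals overlap. With 2 or more reads required in both replicates, a limit chosen after the values were seen, 3 of 5 Ctnna3 peaks overlapped, or 60.0% (23.1 to 88.2). In Cdh13 11 of 218 did, or 5.05% (2.84 to 8.81). Both genes were picked for contrast on these same lists, so the gap between these intervals is not read as a difference. The Ctnna3 value rests on those 5 peaks.

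Sharing rose with pileup in these genes and in all genes. Of single-read replicate 2 peaks 4.49% (3.54 to 5.68) of the members' and 5.71% of all genes' overlapped replicate 1. At a pileup of 2 the shares were 9.31% and 9.83%, and at 3 to 4 they were 12.6% and 13.7%. At 5 or more, 6 of 32 member peaks overlapped, or 18.8% (8.89 to 35.3), against 35.0% of all such peaks.

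**Figure D4:**
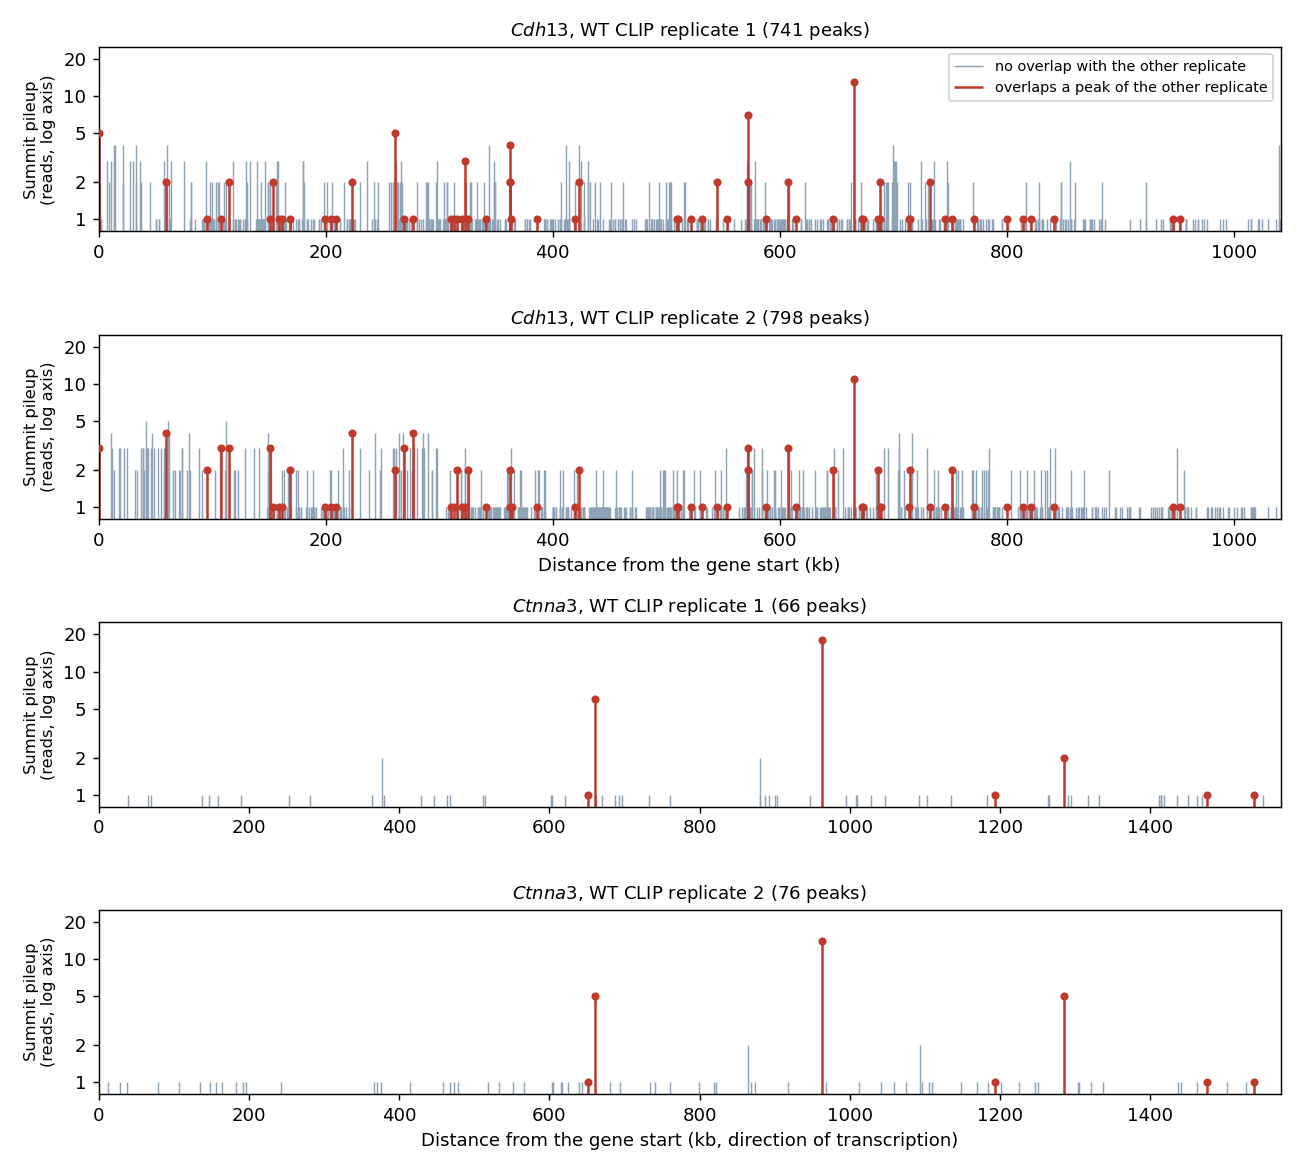
Every peak of Cdh13 and Ctnna3 by its distance from the gene start in kb, with its pileup on a log axis, for WT CLIP replicates 1 and 2; red marks peaks that overlap a peak of the other replicate. Peaks with single reads fill Cdh13, thinning toward its end, while Ctnna3 shows few peaks and a tall peak in intron 9 in both replicates, with 18 and 14 reads.

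The peak with the highest fold of the 10 genes in both replicates lay in Ctnna3. At chr10:64393576-64393605 (mm10, plus strand), in intron 9, the same 30-base interval was called in both replicates. Its pileup was 18 reads in replicate 1 and 14 in replicate 2, over the lowest background of each, with folds of 18.5 and 14.4. By reads alone it was highest in replicate 1, while in replicate 2 a Ctnnd1 peak in the 3′ UTR, chr2:84600926-84600970, had 15 reads over a background of 1.82 and a fold of 5.68. The Ctnna3 peak lay 132625 bases after the 5′ splice site and 15599 before the 3′ splice site, 963.5 kb from the gene start. A second Ctnna3 peak, chr10:64715587-64715616 in intron 13, was also the same interval in both, with 2 and 5 reads and folds of 2.93 and 5.77. These were the 2 pairs of identical intervals among the 70, or 2.86%, against 5.30% of all 16399 pairs. Their 30 bases are the least width in the lists, and whether the stacked reads were separate molecules or copies was not tested.

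Of the 70 listed pairs, Cdh13 had the other with a fold of 5 or more in both replicates. At chr8:118949244-118949279, in intron 5, the pileups were 13 and 11 and the folds 9.58 and 6.75, over a background of 0.462 and 0.778 reads. The Cdh13 peak at chr8:118855926-118855973, the second sequence printed above, had 7 and 3 reads and folds of 7.62 and 3.78. At chr8:118646281-118646340, in intron 2, there were 4 and 2 reads and folds of 4.85 and 2.88. In this gene 17 of the 34 shared peaks had a single read in both replicates and 9 had 2 or more in both.

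Ctnnd2 had its strongest shared peak in intron 1, at chr15:30204802-30204896, with 4 reads in replicate 1 and 6 in replicate 2 and folds of 4.87 and 6.68. The authors' shared list held neighbours on both sides of it, at chr15:30204501-30204530 and at chr15:30205008-30205054, and the latter had 2 and 3 reads and folds of 2.92 and 3.79. Further pairs stood upstream at chr15:30200613-30200642 and chr15:30196836-30196866. All 5 shared peaks of Ctnnd2 in intron 1 thus lay between 24.3 and 32.4 kb from the gene start, in an intron of 158.8 kb. Another 5 stood in intron 3, and 7 of the 14 in the gene had a single read in both replicates.

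In Cdh11 the strongest shared peak was chr8:102719809-102719877, in intron 2, 569 bases after the 5′ splice site, with 4 and 3 reads and folds of 4.80 and 3.74. None of its 6 shared peaks had a single read in both replicates. Ctnnb1 had 1 shared peak, chr9:120944985-120945014 in intron 1, with 3 and 4 reads and folds of 2.74 and 3.02. Ctnna2 had 4 shared peaks, with 2 in intron 8, and folds of 1.92 to 2.93.

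Ctnna1 and Ctnna3 had shared peaks beside a nested gene. Introns of alpha-catenin genes hold Lrrtm genes, which encode synaptic adhesion proteins and lie on the opposite strand. In Ctnna1 intron 7 the pairs chr18:35215632-35215668, chr18:35215892-35215921 and chr18:35215945-35215976 had midpoints 626, 883 and 937 bases upstream of the start of Lrrtm2. The last had 10 reads in replicate 1 and 4 in replicate 2 and folds of 9.58 and 3.96, the strongest of Ctnna1. In Ctnna3 the pair chr10:64090905-64090938, with 6 and 5 reads and folds of 4.79 and 4.76, lay 645 bases upstream of the start of Lrrtm3. Thus 4 of the 70 shared peaks, or 5.71% (2.24 to 13.8), stood within 1000 bases upstream of the start of a coding gene on the other strand, against 84 of all 16399, or 0.512% (0.414 to 0.634). This measure was chosen after the positions were seen, and 3 of the 4 lie within a stretch of 345 bases.

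How strand was assigned to the peaks is not given, so the listed strand cannot be taken as that of the RNA. Inside the 10 gene bodies 22 peaks were listed on the opposite strand. All 22 lay in an annotated gene of that strand and were the same interval as a peak of the member. Within Lrrtm3, 161.8 kb inside Ctnna3, 6 of 6 Ctnna3 peaks in replicate 1 and 12 of 12 in replicate 2 were listed on both strands, among them 1 of the 7 shared peaks. The pair upstream of Lrrtm3 was listed on the Ctnna3 strand alone. In Ctnnd1, 14 of 14 and 9 of 10 peaks also lay in Gm28635, a gene on the same strand, and cannot be told apart from it. The same holds for fewer peaks of other members in replicates 1 and 2. These were 3 and 8 peaks of Cdh11, 9 and 11 of Ctnna2, 1 and 0 of Ctnnd2, and 0 and 1 of Cdh13.

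**Figure D5:**
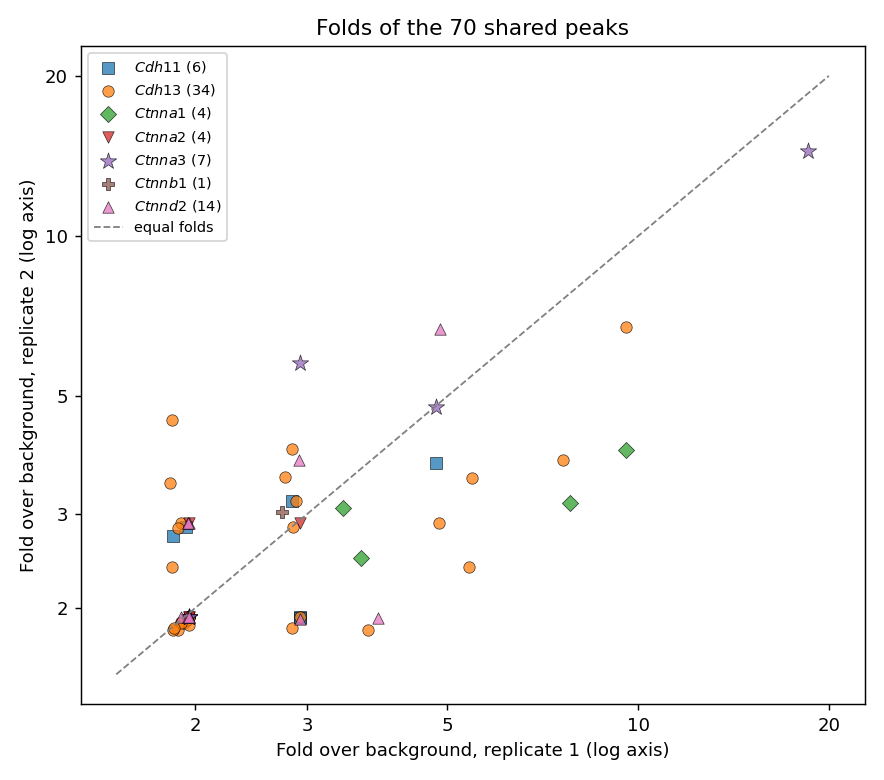
Authors' fold over background of the 70 shared peaks in replicate 1 (horizontal) and replicate 2 (vertical), both on log axes, by gene. Many points crowd near a fold of 2, the value of a single read at low background, and the Ctnna3 peak at 18.5 and 14.4 stands alone at the upper right.

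Over the 70 shared peaks the median fold was 1.95 in replicate 1 and 1.92 in replicate 2, the same as over all member peaks. These are the folds of a single read at the lowest background. A single read in both replicates stood behind 30 of the 70, or 42.9%, against 37.4% of all 16399 pairs. For 22 (31.4%) both replicates had 2 or more reads, against 32.8%. A fold of 5 or more in both was reached by 2 (2.86%), the Ctnna3 and Cdh13 peaks above, against 5.54% of all pairs.

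Cdh2, Cdh4 and Ctnnd1 had no peak in the authors' shared list, and the peak with the highest score in each overlapped no peak of the other replicate. In Cdh2 this was chr18:16640740-16640798, in intron 6, 174 bases before the 3′ splice site, with 8 reads and a fold of 7.05 in replicate 1. Cdh2 also had a pair with 6 reads in both replicates, chr18:16667809-16667847 in replicate 1 (fold 6.05) inside chr18:16667762-16667850 in replicate 2 (fold 5.42), in intron 2. Its 39 common bases were 43.8% of the replicate 2 peak, under the 50% that every listed pair reached. In Ctnnd1 the peak was chr2:84603385-84603523, in intron 19, 179 bases before the 3′ splice site, with 9 reads and a fold of 7.85 in replicate 1. In Cdh4 it was chr2:179719015-179719045, in intron 2, with 2 reads and a fold of 2.88 in replicate 2. Replicate 1 of Cdh4 held single-read peaks throughout. Cdh2 had 15 peaks of 5 or more reads in replicate 1 and 16 in replicate 2, out of 30 and 32 such peaks in all members, and that pair was its only overlap between replicates.

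Introns held 1579 of 1622 member peaks in replicate 1, or 97.3% (96.4 to 98.0), and 1854 of 1870 in replicate 2, or 99.1% (98.6 to 99.5). Over all peaks in genes 90.1% and 90.8% were intronic. Exons make up 50.9 of the 5618.3 kb. Per kb, exons had 0.844 peaks against 0.284 in introns in replicate 1, and 0.314 against 0.333 in replicate 2, so that the replicates did not agree on which was higher. Coding sequence held 20 peaks in replicate 1 and 10 in replicate 2, 3′ UTRs 19 and 6, and 5′ UTRs 4 and 0. Of these exonic peaks 0 overlapped a peak of the other replicate. They were few, 43 in replicate 1 and 16 in replicate 2, and no share was computed for exonic peaks of all genes. Whether exonic peaks overlap less often than intronic ones was not tested.

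Within genes, density followed position in some members. Cdh13 was sparsest in the last 20% of the gene, at 0.331 peaks per kb in replicate 1 and 0.495 in replicate 2. The first 20% had 0.816 and 0.615. It was densest in the second 20% in replicate 1, at 0.941, and in the middle 20% in replicate 2, at 1.08. Its introns 2 and 5 had 0.939 and 0.878 per kb in replicate 1 and 0.815 and 1.04 in replicate 2, while intron 10 had 0.217 and 0.390. Ctnna2 was densest in the middle 20%, at 0.310 and 0.519, and sparsest in the last, at 0.0729 and 0.0820. Its intron 8, at 461.2 kb 42.0% of the gene, held 116 of 202 peaks in replicate 1 and 185 of 301 in replicate 2. Ctnnd2 was densest in the first 20% in both replicates, at 0.502 and 0.829, against 0.280 and 0.374 in the last. Ctnna3 ran between 0.0286 and 0.0572 across 5 equal stretches of the gene, with the highest value in the last stretch in replicate 1 and in the one before it in replicate 2. Cdh11 had 59 of 120 and 58 of 121 peaks in intron 1, which takes 41.9% of the gene.

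The 3 genes nearest to Cdh13 and to Ctnna3 were taken as the most alike. By distance over log2 of gene length, of peaks per kb in each replicate and of shared peaks, the nearest to Cdh13 were Wwox (distance 0.50; 702 and 951 peaks, 36 shared), Gpc6 (0.621; 760 and 539, 29 shared) and Ptprg (0.743; 598 and 493, 27 shared). Nearest to Ctnna3 were Csmd3 (0.579; 55 and 55 peaks, 5 shared), Tenm2 (0.767; 53 and 59, 4 shared) and Cntnap2 (0.871; 86 and 99, 4 shared). The single-read share of the 3 near Ctnna3 was 90.9% to 98.1%, like its own 92.4% and 93.4%.

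Other genes of the complex were counted from lists drawn up with the members. Beside them, 38.7% of all genes with peaks in both replicates and 66.1% of those over 100 kb had a shared peak. Of 19 other cadherins, 16 had peaks in both replicates and 4 of these had a shared peak (Cdh18 with 2; Cdh6, Cdh8 and Cdh24 with 1 each). Their median density was 0.0536 and 0.0660 peaks per kb, close to that of Cdh4 and far under that of Cdh11 and Cdh13. Of 27 other catenins and adherens junction partners, 26 had peaks in both replicates and 20 a shared peak. Most shared peaks were in Magi2 (26) and Magi1 (12), junction scaffolds, Pard3 (19), a polarity protein, Ptprm (16), a receptor phosphatase, and Fyn (12), a kinase. Their median density was 0.546 and 0.565. Of 20 genes of the beta-catenin destruction complex and its nuclear partners, all 20 had peaks in both and 11 had a shared peak. Tcf7l2 (9), a transcription factor partner of beta-catenin, led, before the Wnt co-receptors Lrp6 (5) and Lrp5 (4) and the genes with 3 each (Tcf7l1, Btrc, Fbxw11 and Apc). Ctnnb1 itself, at 31.3 kb, had 1, as had Axin1, Tcf7, Dvl1 and Dvl3 of this list. The genes with 3 or more, 101.6 to 191.8 kb long, were named for having the most shared peaks. Ctnnb1 is therefore not compared with them.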

How the data were processed

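The CLIP peaks of WT replicate 1, of WT replicate 2 and the pairs that the authors listed as shared were used. The submitters' processing notes name the build mm10 and, with no order, deepTools 3.2.1, HOMER 4.11.1, bedtools 2.25.0, Novoalign 3.09.00 and MACS2 2.1.1.20160309. Settings, the caller's control and the handling of duplicate reads are not given. Peak names hold the word MACS2 and the p threshold 0.005. For every peak the authors deposited a score (10 times the −log10 p, rounded down), a fold (a ratio over the caller's background) and the −log10 p itself. The authors' shared list also gives the bases shared by each pair.

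Repeated lines were removed (654978 and 581790 lines became 387749 and 344700 peaks). Peaks were assigned to GENCODE M21 basic gene bodies by midpoint and listed strand, with every gene that held the midpoint counted, and to exons or introns. Overlaps used bedtools 2.31.1 on the same strand. Coordinates are 1-based. Pileup and background were solved from fold = (pileup + 1)/(background + 1) and the Poisson −log10 p, with pileups up to 399, using Python 3.11.15, numpy 2.4.6, pandas 2.3.3 and scipy 1.17.1. The solution and overlaps were tested on simulated data. In replicate 1 6 peaks and in replicate 2 11 matched no whole pileup, and 0.933% and 0.758% matched more than 1, of which the closest was taken. The library depth is unknown, so precision is given by Wilson 95% intervals, and a count of 0 allows 3.

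The 16 library columns of a deposited count table and its summary could not be matched to samples, and input and Mettl3 knockout libraries were not analysed here. The 10 genes and the gene lists were chosen with earlier results of these data known. All 10 are named. Single peaks named are the shared ones with the highest lower score of the pair (up to 10, at most 3 per gene) and the highest score in each gene without one; others were named after their values were seen. From each list the 5 genes with the most shared peaks are named, with ties. No test was made: members were chosen on these lists, and peaks are not replicates.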

Additional observations from a re-analysis of the deposited data

How the results depend on the processing

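Peak counts over the 10 genes were within 1.5 times the reported value with any overlap, with a −log10 p of 3 or more (1220 and 1339) and without intervals on both strands. A fold of 5 or more left 19 peaks in replicate 1 and 6 in replicate 2, and a pileup of 2 or more, chosen after seeing the data like that of 3, left 403 and 422. Peaks per kb over the 10 genes, 0.311, ran from 0.289 to 0.333 without one replicate, and were 0.228 at a −log10 p of 3 or more, 0.0734 at a pileup of 2 or more and 0.0295 at 3 or more. With replicate 1 peaks as the denominator, the overlap share over the 10 genes was 6.84% (111 of 1622). For the stricter settings that follow no share over all genes was computed, so the 7.87% at 1 base is no background for them. The share of replicate 2 peaks overlapping replicate 1 was 3.74% for 50% of the replicate 2 peak and 3.37% for 50% of each peak. It was 4.85% at a −log10 p of 3 or more in both lists. For Cdh13 these were 4.26%, 4.14% and 5.80%, and 5.05% (2.84 to 8.81, 11 of 218) at a pileup of 2 or more in both. For Ctnna3 they stayed at 9.21%. All of its 66 and 76 peaks had a −log10 p of 3 or more, so that limit could not change its share. Of the 798 Cdh13 peaks in replicate 2, 448 passed that limit. For Ctnna3 a pileup of 2 or more gave 60.0% (23.1 to 88.2, 3 of 5). Of the 70 shared peaks, 2 had a fold of 5 or more and 22 a pileup of 2 or more in both; recomputing the pairs gave 70. The intron shares and median folds moved by less than their error. A stricter limit keeps fewer peaks by construction; other causes were not tested. No paired analysis was possible because the peak lists of 1 group were described without a test. Each share rests on both replicates, so none could be given without one. With 2 libraries of unknown depth and mostly single-read peaks, the absence of a shared peak in Cdh2, Cdh4 or Ctnnd1 does not show that none exists.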
